A study of Mus musculus with 2 samples.

Results

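The genes of membrane trafficking were examined in an FMRP RNA immunoprecipitation sequencing (RIP-seq) experiment on testes of adult wild type mice. They were chosen by symbol alone, as every gene whose name belongs to the Rab, TBC, DENN, VPS, exocyst, sorting nexin, COG, TRAPP, SEC, adaptor, syntaxin, Arf regulator, golgin, coatomer, clathrin, dynamin, BEACH or related families. The rule found 135 of the 4788 rows that the authors list as higher in the FMRP RIP. These rows carry 133 gene symbols, because *Gcc2* and *Ehd1* are each listed in 2 rows, on a chromosome and on an alternative scaffold, with identical values.

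Membrane trafficking moves proteins and lipids between the endoplasmic reticulum, the Golgi apparatus, endosomes, lysosomes and the plasma membrane. Coats such as COPII, COPI and clathrin with its AP adaptors select cargo and bend the membrane, small GTPases of the Rab and Arf families mark each compartment, tethers and golgins catch the vesicle, and SNARE proteins such as syntaxins fuse it. In spermatids this machinery builds the acrosome from Golgi-derived vesicles and supplies material along the manchette. FMRP, the product of *Fmr1*, is an RNA-binding protein that associates with polyribosomes.

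The study compared 1 input library, the RNA of the testicular lysate, with 1 library of the RNA recovered by an antibody to FMRP (FMRP RIP), each from wild type adult males. The number of animals behind each library is not given in the sources used here, no IgG library was used here, and with 1 library per group no difference has a replicate check. The deposited values are read counts scaled to the library total (CPM), from 30849871 reads in the input and 36506932 after FMRP RIP. Only genes called higher in the FMRP RIP were listed, so the direction of every change below was fixed by that selection. The fold change is a log2 value, computed as FMRP RIP over input with 1 CPM added to each. Ratios are of the CPM values without this addition, with an exact Clopper-Pearson 95% interval from the rounded reads, which covers counting error only. Of the testis markers examined, 1 of 4 for spermatocytes (*Sycp1*) and 2 of 4 for spermatogonia (*Gfra1* and *Sall4*) were listed. *Sycp3*, *Piwil1*, *Spo11*, *Zbtb16* and *Kit* were not. None of the 6 spermatid, 6 Sertoli, 5 Leydig, 2 peritubular myoid and 3 macrophage markers was listed. Levels of markers that were not listed were not analysed here.

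With 1 CPM added to each value, the trafficking genes as a group were recovered about as strongly as the listed genes at large. The median log2 fold change of the 135 rows was 1.32, with quartiles of 0.88 and 2.09, and the median of all 4788 rows was 1.35. A log2 fold change above 1 was found for 91 of the 135 rows (67.4%), beside 70.1% of all listed rows. Above 2 lay 35 rows (25.9%), beside 25%, and above 3 lay 11 (8.15%), beside 6.62%. Without the addition of 1 CPM, the members lay below the listed genes at large. Their median was then 1.43, beside 1.61, and above 1 lay 98 of the 135 rows, beside 3879 of 4775. With the pseudocount, 133 rows were at least 1.5-fold higher (98.5%, beside 97.3%), and the remaining ones were *Rab4a* and *Asap2*. Nothing is read from these counts, because the listing itself required at least 1.5-fold. Without the pseudocount all 135 rows reached it, as did all 4775 listed rows with a ratio. The range within the group was wide, from 0.48 for *Asap2* (1.04 without the pseudocount) to 4.87 for *Golga4*.

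Together the 135 rows held 0.452% of the reads in the input and 1.56% after FMRP RIP, a ratio of 3.45, whereas all listed rows held 14.2% and 55.2%, a ratio of 3.89. The members were better covered in the input than the listed genes at large, with a median of 14.5 CPM beside 9.27 CPM, and 5 of their rows were under 1 CPM there (3.70%, beside 11.4%). Set against listed genes of a similar input level, their medians were the lower ones in the bands that held most rows. For the 44 rows from 1 to under 10 CPM the median log2 fold change was 1.07, beside 1.29 for all listed rows in that band. For the 77 rows from 10 to under 100 CPM it was 1.41, beside 1.54. The 9 rows at 100 CPM or more had 0.92, beside 1.56, and the 5 rows under 1 CPM had 1.55, beside 1.0. *Ehd1* (0.72) filled 2 of those 9 rows and *Gcc2* (3.35) 2 of those 5. The medians of these small bands depend on the double rows, and nothing is read from them. No test of these differences was made, since genes are not replicates.

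Divided by role, the medians ran from 0.80 to 2.46. Regulators of Arf GTPases had the highest median (2.46, 7 genes), followed by golgins (2.33, 10 genes) and clathrin and endocytic proteins (2.12, 12 genes). Rab effectors (1.73, 8 genes), the VPS13 proteins (1.71, 4 genes), Rab exchange factors with TRAPP subunits (1.55, 14 genes) and COPII and translocon proteins (1.53, 11 genes) lay above the median of all listed genes. Without the pseudocount, COPII and translocon proteins had 1.59, beside 1.61 for the listed rows. Exocyst subunits (1.30, 3 genes), syntaxins (1.13, 3 genes), Rab GTPase-activating proteins (1.12, 15 genes), COG subunits (1.08, 4 genes) and AP adaptors (0.996, 8 genes) lay below it. Sorting nexins with retromer-related and WASH proteins (0.87, 9 genes), Rab GTPases (0.84, 9 genes) and BEACH and lysosome-related organelle proteins (0.80, 7 genes) had the lowest medians. The groups overlap widely, and each of the 3 highest also held genes with a log2 fold change under 1.

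**Figure D1:**
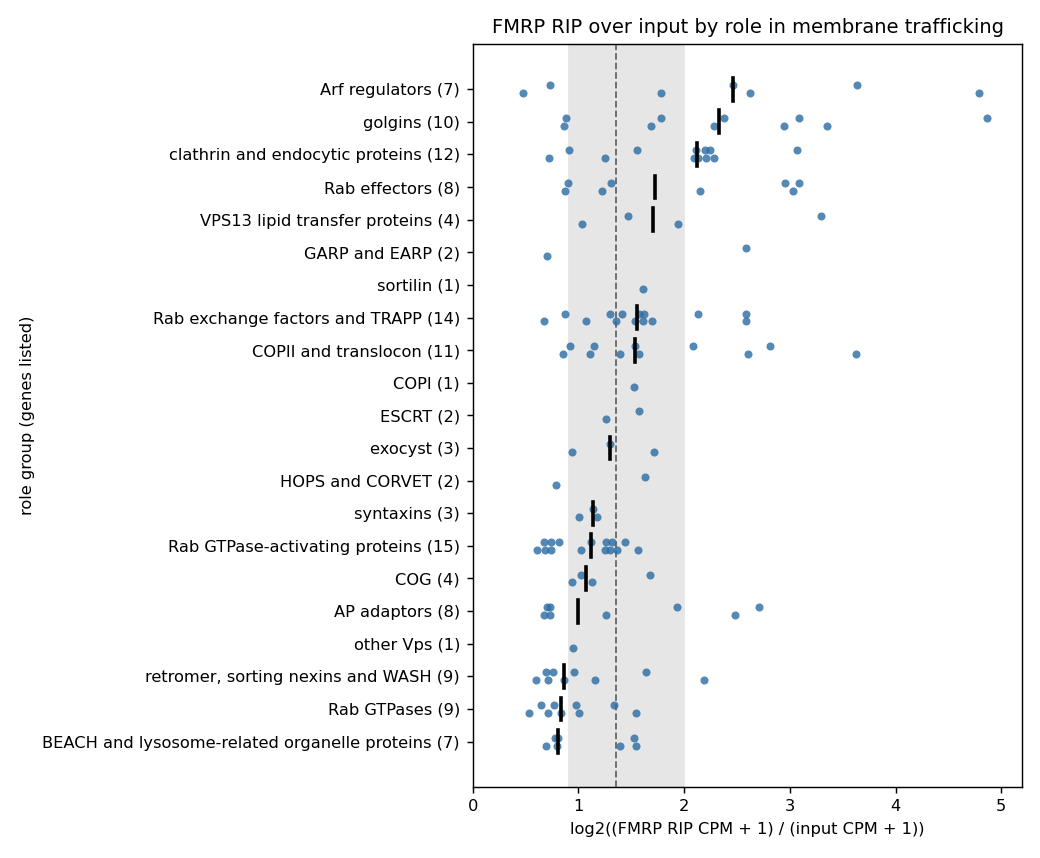
Log2 fold change of FMRP RIP over input (x axis, CPM with 1 added) of the 133 trafficking genes, by role group (y axis, number of genes in brackets). Points are genes, black bars the medians of groups with at least 3 genes, the dashed line the median of all listed rows (1.35) and the grey band the range between their quartiles. The bars of Arf regulators, golgins and endocytic proteins lie furthest to the right, the highest single genes are *Golga4* (4.87) and *Asap1* (4.79), and no Rab GTPase lies above 2.

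Among the coats that leave the endoplasmic reticulum, the cargo-selecting subunits of COPII differed from each other. *Sec24b* (ENSMUSG00000001052, chromosome 3) had 26.8 CPM in the input and 342 CPM after FMRP RIP, a ratio of 12.7 (interval 11.9 to 13.7) and a log2 fold change of 3.62. Its paralogs *Sec24a*, from 12.1 to 54.3 CPM, and *Sec24c*, from 86.3 to 193 CPM, had ratios of 4.50 (4.03 to 5.05) and 2.23 (2.14 to 2.34). The intervals of the 3 paralogs did not overlap, and *Sec24d* was not listed. *Sec16a*, the scaffold of the exit sites where COPII assembles, went from 40.2 to 288 CPM, a log2 fold change of 2.81. The outer coat subunit *Sec31a* had 1.57, and *Sec23ip*, which binds the inner coat, had 0.92. The inner coat genes *Sec23a* and *Sec23b* were not listed. The Sec symbols also took in genes that serve other steps. *Sec61a1*, the channel of the translocon that brings nascent proteins into the endoplasmic reticulum, had the lowest value of the group, 0.85, from 153 to 277 CPM. Its partner *Sec63* had 1.40, and the lipid-binding proteins *Sec14l1* and *Sec14l2* had 2.61 and 1.53. The SNARE-related *Sec22c* had 1.11. Of COPI, the coat of vesicles that return from the Golgi, 1 of the 8 annotated subunits covered by the symbols was listed (12.5%, beside 21.3% of all protein-coding genes). It was *Copg1*, from 38.7 to 114 CPM (log2 fold change 1.53).

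Golgins, long coiled-coil proteins that reach out from the Golgi to capture vesicles, held the highest value of all trafficking genes. *Golga4* (ENSMUSG00000038708), a golgin of the trans-Golgi on chromosome 9 from 118506267 to 118582519 (GRCm38), had 14.0 CPM in the input and 437 CPM after FMRP RIP. The ratio was 31.2 (interval 28.4 to 34.4), and the log2 fold change of 4.87 ranked 14 among the 4788 listed rows. *Gcc2*, another trans-Golgi golgin, had a ratio of 21.0 (14.5 to 32.99) at a far smaller number of reads. Each of its 2 rows held 26.5 input reads and 657.5 after FMRP RIP, and whether reads were divided between the copies was not tested. Summed over both rows, *Gcc2* had 53 and 1315 reads, and its log2 fold change was 3.77 in place of 3.35. *Golga3*, which mouse spermatogenesis requires, went from 34.9 to 305 CPM (log2 fold change 3.09). *Golgb1*, the gene of giantin, had 2.95, *Golga5* 2.38, and *Trip11*, whose product GMAP-210 anchors the transport protein IFT20 at the Golgi, 2.28. *Golga1* (1.78) and *Golga2* (1.68) followed. The lowest golgin-group values were those of the vesicle tether *Uso1*, 0.88, and of *Gcc1*, 0.86, which had 9.04 CPM in the input and 17.2 CPM after FMRP RIP. The ratio of *Gcc1* was 1.91 (1.65 to 2.20), well apart from that of *Gcc2* in counting error. Of 13 annotated genes in this group 10 were listed (76.9%, beside 21.3% of all protein-coding genes), all but *Golga7*, *Golga7b* and *Golim4*.

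**Figure D2:**
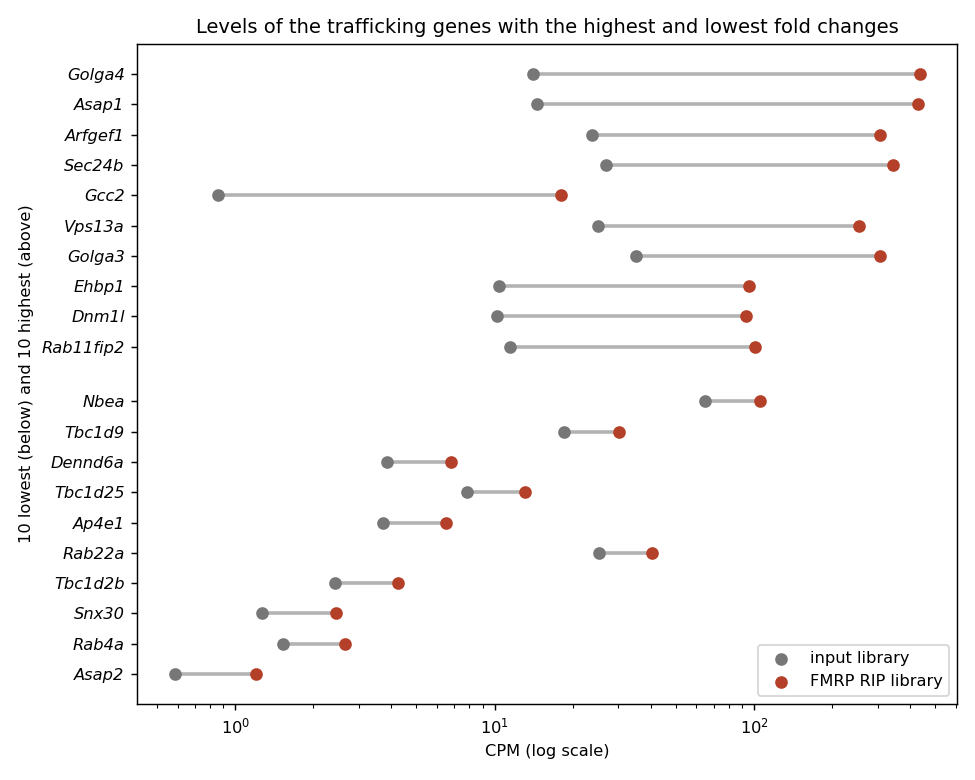
CPM in the input library (grey) and in the FMRP RIP library (red) on a log axis for the 10 trafficking genes with the highest and the 10 with the lowest log2 fold changes, ordered by that value. *Golga4* runs from 14.0 to 437 CPM, and *Rab22a*, near the bottom, from 25.3 to 40.3 CPM, so input levels of both sets overlap.

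The COG complex tethers vesicles that recycle within the Golgi, and 4 of its 8 subunits were listed (50%, beside 21.3% of all protein-coding genes). *Cog1* had 39.3 CPM in the input and 128 CPM after FMRP RIP (log2 fold change 1.68), *Cog5* had 1.13 and *Cog3* 1.02. *Cog4*, from 93.0 to 179 CPM, was the lowest with 0.94. The ratio of *Cog1*, 3.26 (3.06 to 3.48), lay above that of *Cog4*, 1.93 (1.84 to 2.01), by more than counting error.

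Arf GTPases recruit coats at the Golgi. The symbol rule covers 4 genes of the family of their exchange factors, and these were listed, beside 21.3% of all protein-coding genes. *Arfgef1* (ENSMUSG00000067851, chromosome 1) had 23.8 CPM in the input and 306 CPM after FMRP RIP, a ratio of 12.9 (11.95 to 13.9). *Arfgef2*, from 44.4 to 250 CPM, had a ratio of 5.62 (5.31 to 5.95), and *Arfgef3*, from 2.85 to 22.8 CPM, had 7.99 (6.41 to 10.1). *Gbf1*, the exchange factor of the cis-Golgi, went from 162 to 560 CPM, a ratio of 3.46 (3.35 to 3.56). The opposite activity, that of the Arf GTPase-activating proteins, was split. *Asap1* (ENSMUSG00000022377), on chromosome 15 from 64086857 to 64382919, had 14.5 CPM in the input and 428 CPM after FMRP RIP, a ratio of 29.5 (26.8 to 32.4), and its log2 fold change of 4.79 ranked 17 among all listed rows. *Asap3* had 4.60 and 8.33 CPM, a ratio of 1.81 (1.48 to 2.22). *Asap2* had 0.584 and 1.21 CPM, and with 18.03 input reads its ratio of 2.06 had an interval of 1.17 to 3.80. The log2 fold change of *Asap2* was 0.48 with the pseudocount and 1.04 without it, so its place at the low end rests on the pseudocount at this low level. The interval of *Asap1* stood apart from those of both paralogs. *Arfgap1*, *Arfgap2* and *Arfgap3* were not listed (0 of 3, beside 21.3%).

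The listed share of the Rab GTPases themselves was not far from that of all protein-coding genes. Of 59 annotated Rab genes, 9 were listed (15.3%, beside 21.3% of all protein-coding genes). None of the 9 had a log2 fold change above 2, beside 25% of all listed rows. *Rab8b*, which acts in exocytosis and ciliary traffic, had 6.47 CPM in the input and 20.8 CPM after FMRP RIP, a ratio of 3.21 (2.75 to 3.78) and a log2 fold change of 1.54. *Rab10*, its relative, had 1.34, and *Rab23*, known from Hedgehog signalling, 1.01. Below 1 lay *Rab2b* (0.98), *Rab43* (0.84), *Rab6b* (0.77), *Rab36* (0.71), *Rab22a* (0.65) and *Rab4a* (0.54). *Rab22a*, an early endosomal Rab, had 25.3 and 40.3 CPM, and its ratio of 1.59 (1.46 to 1.74) was the lowest of all members. *Rab4a*, a Rab of rapid recycling, had 1.52 and 2.66 CPM, from 47 and 97 reads.

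Of the 10 annotated effectors that the symbols cover, proteins that Rabs recruit, 8 were listed (80%, beside 21.3% of all protein-coding genes). All 5 Rab11 family interacting proteins, which link recycling endosomes to motors, were listed, while *Rab11a* and *Rab11b* were not. *Rab11fip2* went from 11.5 to 101 CPM, a ratio of 8.81 (7.89 to 9.85). *Rab11fip5* went from 189 to 841 CPM, a ratio of 4.45 (4.33 to 4.58). *Rab11fip3* had 2.43 (2.18 to 2.71), *Rab11fip1* 1.996 (1.70 to 2.35) and *Rab11fip4*, from 9.79 to 18.8 CPM, 1.92 (1.68 to 2.21). The intervals of *Rab11fip3*, *Rab11fip1* and *Rab11fip4* all overlapped one another. *Ehbp1*, an effector of the Rab8 family, had 10.4 and 95.5 CPM, a ratio of 9.20 (8.21 to 10.4), and its relative *Ehbp1l1* had 2.51 (2.37 to 2.66). *Rabep1*, the Rab5 effector rabaptin-5, went from 4.57 to 42.2 CPM, a log2 fold change of 2.96.

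Exchange factors, which load Rabs with GTP, were listed in 14 of 34 cases counted together with the TRAPP subunits (41.2%, beside 21.3%). The DENN proteins led, with *Dennd5a* from 38.995 to 240 CPM (log2 fold change 2.59) and *Dennd4a* from 10.2 to 66.5 CPM (2.58). The 3 DENND4 proteins, exchange factors of Rab10, formed a series without overlap of their intervals, with ratios of 6.49 (5.77 to 7.32) for *Dennd4a*, 4.57 (4.17 to 5.01) for *Dennd4c* and 3.18 (2.89 to 3.50) for *Dennd4b*. *Dennd5b* had a log2 fold change of 1.62, *Dennd2c* 1.53 and *Madd*, which acts on Rab3, 1.36. *Dennd1a* had 0.88, and *Dennd6a*, the lowest of the group, 0.68, from 3.86 to 6.76 CPM. The exchange factors of Rab8 were also present, *Rab3il1* from 220 to 655 CPM (1.57) and *Rab3ip* from 51.0 to 108 CPM (1.07). Of the TRAPP tether, 3 of 15 subunits were listed (20%, beside 21.3% of all protein-coding genes), and these were large subunits outside its shared core, *Trappc8* (1.70), *Trappc9* (1.41) and *Trappc10* (1.30).

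The GTPase-activating proteins that switch Rabs off lay within a narrow range. Of 34 annotated genes 15 were listed (44.1%, beside 21.3% of all protein-coding genes), with log2 fold changes from 0.61 to 1.56. Of the 15, 9 lay above 1 (60%), a smaller share than the 70.1% of all listed rows. *Tbc1d1*, known for its part in glucose transporter traffic in muscle, had 90.7 CPM in the input and 270 CPM after FMRP RIP (1.56). *Tbc1d2* (1.45), *Tbc1d5* (1.36), *Tbc1d9b* (1.32), *Tbc1d22b* (1.30), *Rab3gap2* (1.26), *Tbc1d31* (1.25), *Rabgap1l* (1.12) and *Tbc1d16* (1.03) came next. At 0.82 and below lay *Tbc1d14*, *Tbc1d30*, *Tbc1d15*, *Tbc1d9* (18.5 and 30.3 CPM, 0.68), *Tbc1d25* (7.81 and 13.1 CPM, 0.67) and *Tbc1d2b*. *Tbc1d2b* had 2.43 and 4.25 CPM, a ratio of 1.75 (1.32 to 2.33), beside 3.16 (2.58 to 3.89) for its paralog *Tbc1d2*.

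**Figure D3:**
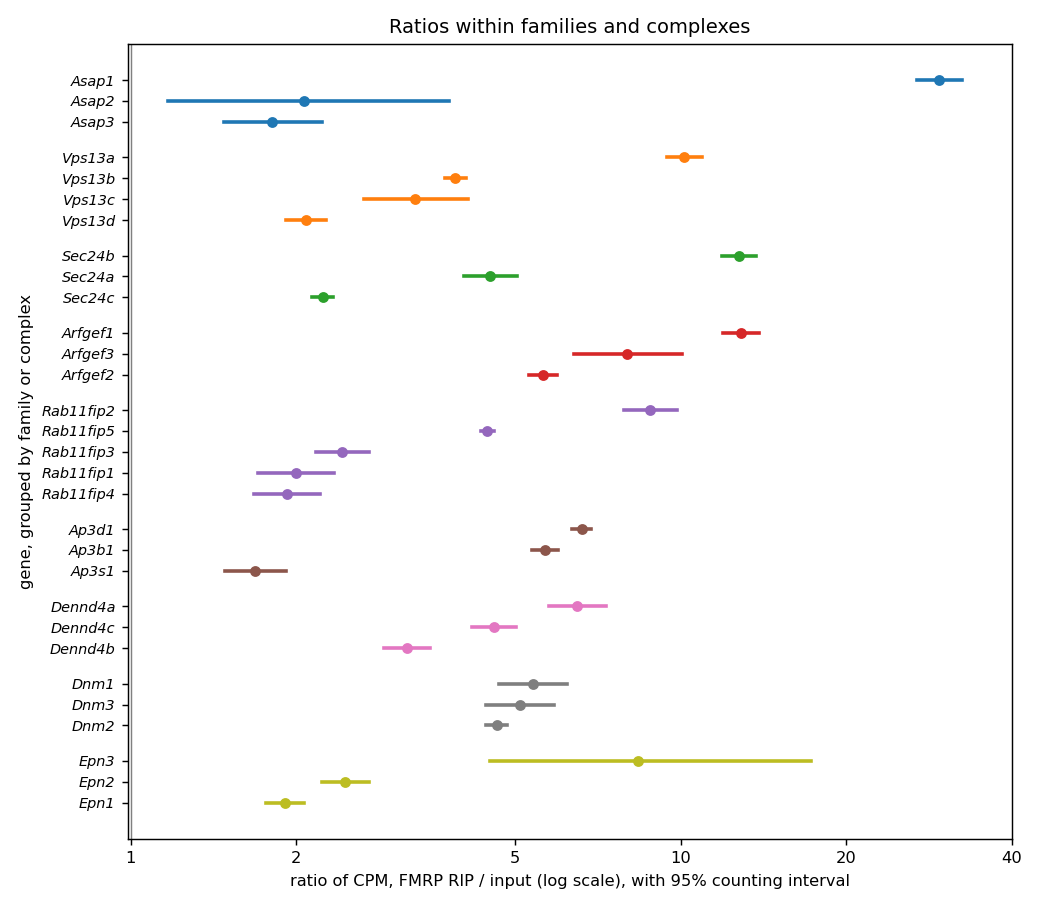
Ratio of CPM in the FMRP RIP to CPM in the input (x axis, log scale) for 9 families and complexes of the trafficking genes, each in its own colour; lines are exact 95% intervals of counting error. *Asap1* stands at 29.5 while *Asap2* and *Asap3* lie near 2, the VPS13 ratios run from 2.08 to 10.1 and the SEC24 ratios from 2.23 to 12.7, the DENND4 ratios from 3.18 to 6.49, and the intervals of the 3 dynamins overlap.

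In endocytosis, the 3 dynamins that cut vesicles from the plasma membrane gave nearly equal ratios. *Dnm1* had 7.36 CPM in the input and 39.6 CPM after FMRP RIP, *Dnm2* 80.2 and 371 CPM, and *Dnm3* 7.46 and 37.99 CPM. Their ratios were 5.38 (4.67 to 6.21), 4.63 (4.43 to 4.83) and 5.10 (4.43 to 5.88), with overlapping intervals. *Dnm1l*, a relative that divides mitochondria and peroxisomes, had a higher ratio of 9.12 (8.12 to 10.3), from 10.2 to 93.4 CPM. The stonins *Ston2* (log2 fold change 2.24) and *Ston1* (2.13) and the clathrin adaptors *Picalm* (2.11) and *Eps15* (2.09) lay close together. The 3 epsins, which also bind clathrin and ubiquitin, were all listed (100%, beside 21.3% of all protein-coding genes). *Epn2* had 1.25 and *Epn1* 0.91. *Epn3* had 0.357 and 2.99 CPM, and its 11 input reads left an interval of 4.50 to 17.3 around a ratio of 8.37. *Ehd1*, a recycling ATPase and the lowest of the group, had 128 and 212 CPM in each of its rows (0.72). None of the 3 clathrin chains, *Clta*, *Cltb* and *Cltc*, was listed, beside 21.3% of all protein-coding genes.

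The AP adaptors each consist of large, medium and small chains, and the large chains made up most of the listed ones. Of the 10 annotated large chains covered by the symbols 6 were listed (60%), of the 15 medium and small chains 2 (13.3%), beside 21.3% of all protein-coding genes. The listed AP genes had a median span on the chromosome of 55.1 kb, those not listed 19.4 kb. The part of span in these counts was not tested. *Ap3d1*, the delta chain of AP-3, which sorts cargo to lysosomes and related organelles, went from 90.7 to 599 CPM, a ratio of 6.604 (6.35 to 6.87). *Ap3b1*, its beta chain, went from 53.0 to 300 CPM, a ratio of 5.66 (5.38 to 5.97). The small chain *Ap3s1* of the same complex had 11.9 and 20.02 CPM, a ratio of 1.68 (1.48 to 1.91), so the chains of 1 complex were recovered unequally. *Ap2b1*, the beta chain of the plasma membrane adaptor AP-2, went from 371 to 1423 CPM (log2 fold change 1.94). It supplied 9.12% of the FMRP RIP reads on all members, and 8.21% of their input reads. *Ap1g1* had 1.26, *Ap5b1* 0.73, *Ap1m1*, from 250 to 416 CPM, 0.73, and *Ap4e1*, from 3.71 to 6.52 CPM, 0.67.

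Among the endosomal and lysosomal proteins, the core of retromer, *Vps26a*, *Vps26b*, *Vps29* and *Vps35*, was not listed (0 of 4, beside 21.3%). Of 30 annotated sorting nexins 7 were (23.3%), close to the 21.3% of all protein-coding genes. They were led by *Snx13* from 10.1 to 49.8 CPM (log2 fold change 2.19) and *Snx25* with 1.64. *Snx18* had 1.16, *Snx9* 0.96, *Snx2* 0.76, *Snx19* 0.70 and *Snx30*, from 1.26 to 2.44 CPM, 0.60. *Vps35l* had 0.71 and *Washc5*, of the actin-nucleating WASH complex, 0.87. Of the tether GARP, which receives vesicles at the trans-Golgi, *Vps54* went from 4.73 to 33.4 CPM, a ratio of 7.07 (5.95 to 8.45), whereas *Vps53* had 7.70 and 13.1 CPM, a ratio of 1.71 (1.46 to 1.999). *Vps54* is the gene mutated in the wobbler mouse, whose spermatids fail to form an acrosome. Of the lysosomal tether HOPS, *Vps41* had 1.63 and *Vps39* 0.79, and of the ESCRT machinery *Vps37a* had 1.58 and *Vps4a* 1.26. *Vps9d1* had 0.95.

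All 4 VPS13 genes, which encode very large proteins that transfer lipids between membranes, were listed (100%, beside 21.3% of all protein-coding genes). All 4 fell in the longest of 5 classes of gene span, in which 47.2% of all protein-coding genes were listed. *Vps13a* (ENSMUSG00000046230, chromosome 19) had 24.99 CPM in the input and 254 CPM after FMRP RIP, a ratio of 10.1 (9.43 to 10.9) and a log2 fold change of 3.29. *Vps13b* went from 77.6 to 302 CPM, a ratio of 3.89 (3.72 to 4.07), and *Vps13c* from 3.50 to 11.5 CPM, a ratio of 3.29 (2.65 to 4.10). *Vps13d* had 25.5 CPM in the input and 53.1 CPM after FMRP RIP, a ratio of 2.08 (1.92 to 2.27). The interval of *Vps13b* overlapped that of *Vps13c*, and those of *Vps13a* and *Vps13d* stood apart from all others.

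At the last steps of delivery, tethers and SNAREs act at the target membrane. Of the exocyst, the tether of the plasma membrane, with its related genes, 3 of 12 were listed (25%, beside 21.3%), *Exoc6b* from 10.05 to 35.2 CPM (log2 fold change 1.71), *Exoc5* (1.30) and *Exoc6* from 1.26 to 3.34 CPM (0.94). Of 15 syntaxins 3 were listed (20%), close to the 21.3% of all protein-coding genes. They were *Stx17* from 26.5 to 61.2 CPM (1.18), *Stx2* (1.13) and *Stx16* from 3.24 to 7.53 CPM (1.01). The sorting receptor *Sort1* went from 88.0 to 270 CPM (1.61). All 5 BEACH domain proteins of the rule were listed (100%, beside 21.3% of all protein-coding genes). *Nbeal1* had 1.53, *Nbeal2* 1.39, *Lrba* 0.80, *Lyst* 0.78 and *Nbea*, from 64.9 to 106 CPM, 0.70. Of the Hermansky-Pudlak genes, which serve lysosome-related organelles, *Hps4* had 29.04 and 86.9 CPM (1.55) and *Hps5* had 0.80.

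How many of a family were listed at all was uneven too. In the RefSeq annotation of GRCm38.p6, 358 protein-coding genes fit the symbol rule, and 134 of them were listed (37.4%, exact 95% interval 32.4 to 42.7), beside 21.3% of all 21900 protein-coding genes, expressed in testis or not. Among the 134, *Dennd11* is listed under an older name and is no member by the rule. In the shares by role it counts among the annotated exchange factors as not listed. Those shares rest on symbols matched directly, which gave 21.2% for all protein-coding genes. The share was 100% for VPS13, 80% for Rab effectors, 76.9% for golgins and 70% each for Arf regulators and BEACH and lysosome-related organelle proteins. It was 15.3% for Rab GTPases and 12.5% for COPI. A gene that is not listed has no value here, and whether it was unchanged, lower, or too low to be called cannot be told.

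**Figure D4:**
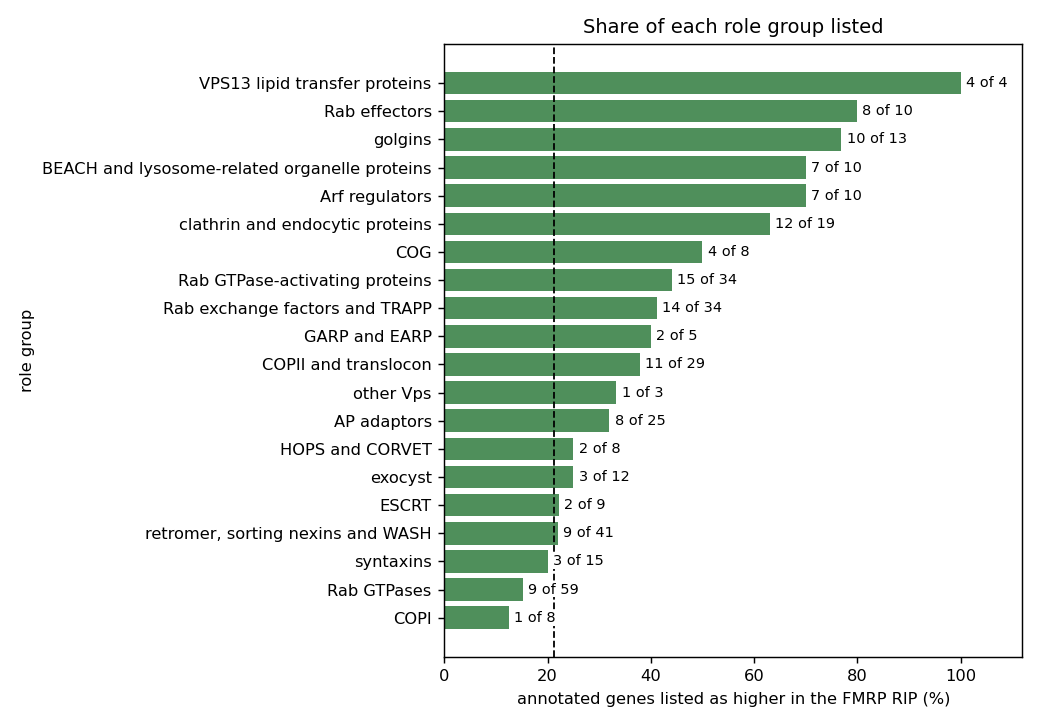
Percentage of the annotated genes of each role group that were listed as higher in the FMRP RIP (x axis), for groups with at least 3 annotated genes (y axis); the numbers give listed and annotated genes, and the dashed line marks all protein-coding genes matched by their own symbol (21.2%). VPS13 proteins, Rab effectors and golgins stand highest, Rab GTPases and COPI lowest.

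Gene length on the chromosome moved with these shares. The listed trafficking genes had a median span from gene start to end of 60.8 kb, and those not listed 25.2 kb. Over all protein-coding genes the medians were 48.7 and 12.5 kb. When the protein-coding genes were divided into 5 equal classes by span, 0 of 10 trafficking genes were listed in the shortest class, 3 of 47 in the next (6.38%), then 19 of 71 (26.8%), 39 of 108 (36.1%) and 72 of 122 in the longest (59%). For all genes the shares were 2.76%, 7.95%, 17.6%, 30.4% and 47.2%. The trafficking genes thus lay above all genes in the 3 longest classes. In the 2 shortest, too few were listed (0 of 10 and 3 of 47) to set them apart from all genes. For Rab GTPases the spans were 29.4 kb for listed and 22.5 kb for other genes, and for golgins 49.9 and 22.8 kb. Across the 133 genes the fold change itself was weakly related to span (Spearman's rho 0.21) and to input level (0.13), and genes are not independent replicates. The length of the transcripts was not analysed here, and the part of gene span and of expression level in testis in these shares was not tested.

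**Figure D5:**
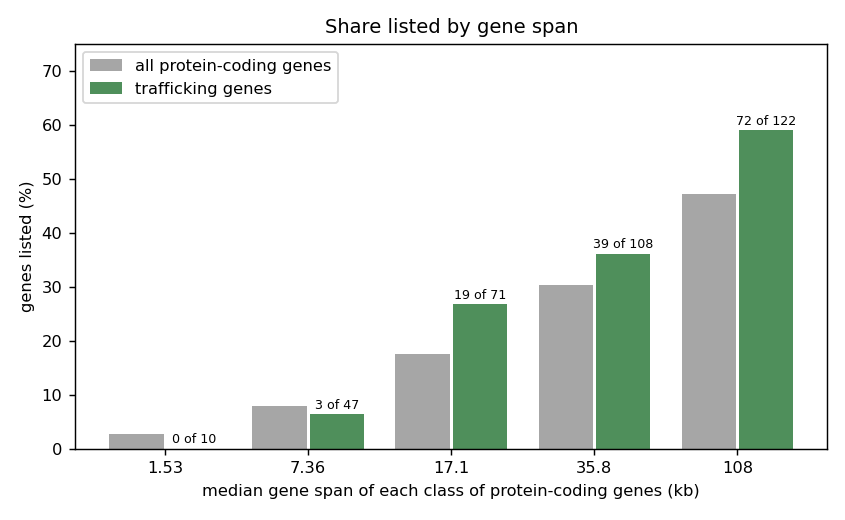
Percentage of genes listed (y axis) by 5 classes of gene span, labelled with the median span of each class in kb, for all protein-coding genes (grey) and trafficking genes (green, with listed and annotated numbers). Both shares rise with span, from 2.76% to 47.2% for all genes and from 0 of 10 to 72 of 122 for trafficking genes.

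Other trafficking genes, outside the symbol rule, were also examined as a list of 124 SNAREs, Arf proteins, clathrin accessory proteins, ESCRT, endosomal and ER-Golgi factors. Of these, 49 were listed (39.5%, beside 21.3% of all protein-coding genes). Their median log2 fold change of 1.18 was below the 1.35 of all listed rows. Above 1 lay 31 of the 49 (63.3%, beside 70.1%) and above 2 lay 12 (24.5%, beside 25%), so the listed ones did not exceed the listed genes at large. The highest was *Eea1*, the tether of early endosomes, from 1.56 to 24.3 CPM, a ratio of 15.6 (11.7 to 21.3). *Zfyve26* had a log2 fold change of 2.86, the AP-2 kinase *Aak1* 2.76, *Sbf2* 2.74 and the BEACH protein *Wdfy4* 2.67. The alpha chains of AP-2, *Ap2a1* and *Ap2a2*, had 1.34 each, below the 1.94 of the beta chain *Ap2b1*. A list of 16 genes of acrosome formation and content was put together with earlier results of these data known. Of these 7 were listed (43.8%, beside 21.3%), with a median log2 fold change of 2.28, beside 1.35 for all listed rows, and nothing about acrosome genes is read from so short a list. *Gopc*, *Pick1*, *Tbc1d20*, *Rab3a*, *Zpbp*, *Spaca1*, *Dpy19l2*, *Acr* and *Acrbp* were not listed. Of the 7, *Golga3*, *Vps54*, *Trip11* and *Vps13b* are members described above. The others were *Tmf1*, a Golgi protein needed for the acrosome, from 27.5 to 248 CPM (3.13), *Agfg1* (1.53) and *Smap2* (0.68).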

How the data were processed

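The data comprise 1 input and 1 FMRP RIP library from testes of wild type mice. The authors deposited CPM values per gene for each library, for protein-coding genes they called higher in the FMRP RIP with edgeR. The submitters' processing notes name STAR and GRCm38 (mm10), and the counting tool is not given in the sources used here. The deposited table also holds the authors' fold changes, p-values and calls, which were not used beyond the listing itself. Fold changes below are relative to the library totals, in which the listed genes take part.

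The CPM values are whole multiples of 0.01 read (tolerance 0.05 of that step), which gave library totals of 30849871 and 36506932 reads. By these totals 1 read equals 0.0324 input CPM or 0.0274 FMRP RIP CPM, and the floor of 3 reads 0.0972 or 0.0822 CPM. No member was at or under the floor, and 16 had under 100 input reads. Whole reads made up 78.4% and 78.8% of the values above 0, too few for a count test. Of the 133 genes, 35 had fractional reads in at least 1 library, so reads may be shared with other loci there. Copies made by PCR are not independent, and the intervals cover counting error alone.

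The log2 ratio with a pseudocount of 1 CPM was described beside all listed genes, with no filter and no test. The members, role groups and lists were chosen with earlier results of these data known. Values were given for the 10 highest and 10 lowest members, the highest and lowest of each role group with at least 3 genes, and others needed to account for a group. A ranking of levels per kb of transcript was planned and not made, as transcript lengths were not used here. Symbols were matched to RefSeq for GRCm38.p6, and the positions of all 133 genes overlapped those there. The functions were tested on simulated data. Calculations used Python 3.11.15 with scipy 1.17.1, pandas 2.3.3 and numpy 2.4.6, and plots matplotlib 3.10.9.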

Additional observations from a re-analysis of the deposited data

How the results depend on the processing

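The median log2 fold change of the members was 1.32. A pseudocount of 5 CPM gave 1.09 and scaling both libraries to their reads on genes not listed gave 2.24, beside 1.04 and 2.24 for all listed rows. The count above 2 was 35, with 22 at a pseudocount of 5 CPM and 84 under that scaling, which multiplies each FMRP RIP value by 1.92 and so raises all genes by up to 0.94 on the log2 scale. A pseudocount of 0.5 CPM, none, a minimum of 1 CPM and unique symbols kept the counts above 1, above 2 and at 1.5-fold within 1.5 times. Leaving out genes of other known roles (*Sec14l1*, *Sec14l2*, *Sec61a1*, *Sec63* and *Dnm1l*) kept them there too. So did summing the rows of a symbol, which was chosen after seeing the data. The comparison with all listed rows depended on the pseudocount. With 0.5 CPM the members' median was 1.38, beside 1.46, and with none it was 1.43, beside 1.61. With none, 38 of the 135 members lay above 2, beside 1632 of 4775 listed rows. The count at 1.5-fold was bound to hold, since the listing required it. Among 15 role groups with at least 3 genes, Arf regulators, golgins and endocytic proteins held the 3 highest medians under each pseudocount and without one, and golgins came first with 5 CPM (1.93). The order of lower groups was less stable. Exocyst subunits went from rank 8 to 12 with 5 CPM. Without a pseudocount, Rab GTPases (1.09) lay above AP adaptors (1.06). Of the 10 highest genes, 9 remained without a pseudocount and 9 with 5 CPM, but of the 10 lowest only 4 and 6, so the order at the low end rests on the pseudocount. Of 148 values of 37 named genes under these alternatives, 54 moved by more than the gene's counting interval, 36 of them with the scaling. The direction could not change, because only genes called higher were listed. Depth limits genes such as *Epn3* (11 input reads) and *Asap2*. No paired analysis was possible because there was only 1 library on each side.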
